A study of Mus musculus with 30 samples.

Results

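The T cell attracting chemokines Ccl5, Cxcl9 and Cxcl10 were followed in peritoneal macrophages of mice in which the coding sequences of the cyclooxygenases had been exchanged. They are 3 of the 248 target genes of an nCounter mouse inflammation panel, taken by name and selected on their levels in these same samples, so their differences between groups are given as levels, folds and intervals with no p-value of their own. Where the genes that passed a test are counted over the panel, these are counted too, as a description. All 3 had signal above 20 in at least 6 samples, as had 202 of the 248 target genes. The study held 30 C57BL/6 mice aged 12 to 16 weeks in 5 groups of 6. Wild-type mice received the PBS vehicle (WT-LPS) or lipopolysaccharide (WT+LPS), a cell wall component of Gram-negative bacteria, at 2 mg/kg into the peritoneal cavity. The exchange lines COX-1>COX-2, COX-2>COX-1 and Reversa all received LPS at that dose, and none received vehicle, so the effect of an exchange without LPS was not measured. By design, the Ptgs2 locus of COX-1>COX-2 mice carries the coding sequence of Ptgs1 (COX-1). Conversely, Ptgs2 (COX-2) is encoded at the Ptgs1 locus of COX-2>COX-1 mice, and Reversa carries both exchanges. Every cell of these mice carries the exchange, so the other cells of the peritoneum were altered too. Macrophages were harvested 6 h after injection and their total RNA was profiled.

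Chemokines are small secreted proteins that direct the migration of leukocytes. Cxcl9 and Cxcl10 act through Cxcr3, a receptor of activated T cells and natural killer cells, and both are induced by interferons. Ccl5 (RANTES) acts on T cells, monocytes and eosinophils. In macrophages, LPS binds the Tlr4 receptor complex, which activates NF-kappaB and, through interferon regulatory factors, type I interferon; Cxcl9 is known above all as a target of interferon gamma. Cyclooxygenases convert arachidonic acid to the precursor of the prostaglandins, of which prostaglandin E2 is known to alter chemokine production by macrophages.

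The genes lie in 2 clusters. In GRCm38.p6 RefSeq places Cxcl9 (gene ID 17329) on the minus strand at chr5:92321331-92328079 and Cxcl10 (15945), also on the minus strand, at chr5:92346638-92348889. They lie 18.6 kb apart within the CXC chemokine cluster. Another gene, Art3, annotated at chr5:92331799-92414628, covers part of the stretch between them and all of Cxcl10. Ccl5 (20304) lies at chr11:83525778-83530518. The 250 bases before the start of Cxcl9 (chr5:92328080-92328329) and of Cxcl10 (chr5:92348890-92349139), read 5′ to 3′ on the minus strand from RefSeq, are shown as background. Ccl5 had no promoter entry. A link between these letters and the levels was not tested. Capitals mark matches to an interferon-stimulated response element (GAAANNGAAA), to the kappaB consensus of NF-kappaB and to CCAAT, searched on both strands together with the gamma-activated site GAS (TTCNNNGAA).
Cxcl9: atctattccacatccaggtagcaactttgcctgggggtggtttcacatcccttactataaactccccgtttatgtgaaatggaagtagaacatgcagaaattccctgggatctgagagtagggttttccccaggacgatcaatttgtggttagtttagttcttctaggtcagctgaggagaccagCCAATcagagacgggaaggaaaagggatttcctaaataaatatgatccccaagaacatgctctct
Cxcl10: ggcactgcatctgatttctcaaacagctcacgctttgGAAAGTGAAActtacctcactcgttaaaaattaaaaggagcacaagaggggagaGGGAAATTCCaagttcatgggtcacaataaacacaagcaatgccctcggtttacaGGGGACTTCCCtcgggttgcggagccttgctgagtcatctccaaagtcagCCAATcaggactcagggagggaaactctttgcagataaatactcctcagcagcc
In the Cxcl10 window the response element lay 213 to 204 bases before the start. One kappaB match lay 159 to 150 bases before it, and a pair of overlapping matches covered 104 to 94 bases before it. CCAAT lay 54 to 50 bases before the start of Cxcl10 and 65 to 61 bases before that of Cxcl9, whose window held no match to the other motifs. Of 32851 RefSeq promoter windows of that length, 2.98% held the response element, 7.25% kappaB, 7.02% GAS and 33.8% CCAAT. Among the 232 windows of genes on the panel these shares were 4.74%, 14.2%, 9.91% and 31%. A match is a description of the letters and not a site. Only exact matches were searched, so a window without a match may still hold a site.

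The deposited signal summed to between 471534 and 773828 per sample. Estimated counts behind it ran from 298392 to 1001805. The column names fall into 3 sets by their first part, called runs here, though no label says what a set stands for. Each run held 2 lanes of every group, and each group was always in the same lane positions, so lane position cannot be told apart from group. Reversa mice 55 and 56 differed by about counting noise over all genes (chi-square 1.27 per gene, against 20.9 for the next closest of the 75 pairs within groups), so their mean entered as 1 sample. That left 5 samples for Reversa and 29 for the study. Ptgs2 and Ptgs1 were near background in the lines that lack their coding sequence. Ptgs2 averaged 4910 ± 1135 (SD, n = 6) in WT+LPS, 6471 ± 2273 (n = 6) in COX-2>COX-1 and 292 ± 142 (n = 5) in Reversa, and lay at or under 20 in all 6 COX-1>COX-2 mice. Ptgs1 averaged 238 ± 71.3 (n = 6) in WT+LPS, 441 ± 84.1 (n = 6) in COX-1>COX-2 (log2 difference 0.92, limma adjusted p = 0.164) and 240 ± 171 (n = 5) in Reversa, and lay at or under 20 in all 6 COX-2>COX-1 mice. Of the 240 negative control values, 1 exceeded 20, so a signal of 20 served as the floor.

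Ccl5 was the only one of these chemokines with a level well above background in vehicle-treated macrophages. The 6 WT-LPS mice read 1047, 1728, 1674, 1635, 1685 and 1666, a mean of 1573 ± 260 (SD, n = 6). The 6 WT+LPS mice read 47793, 46147, 37795, 40427, 40029 and 40466, a mean of 42109 ± 3926 (n = 6). The ranges lay far apart, and the WT+LPS mice were the tightest group of the study for this gene, with a coefficient of variation of 9.32%. The difference was 27.1-fold, or 4.76 on the log2 scale (SE 0.20, 95% interval 4.34 to 5.18). As in any bulk RNA, fewer cells of a type and less RNA per cell cannot be told apart.

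Cxcl9 was near background without LPS. Its signal was 13.7, 25.8, 1.58, 6.42, 7.95 and 28.1 in the WT-LPS mice, at or under the floor of 20 in 4 of 6. In WT+LPS it was 3970, 3313, 3119, 1934, 2699 and 1816, a mean of 2808 ± 832 (n = 6), at least 122-fold higher than the floor-limited vehicle level. Every LPS-treated mouse exceeded every vehicle mouse.

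Cxcl10 was not above background without LPS. All 6 WT-LPS mice lay under the floor, with 19.8 as the highest value. The 6 WT+LPS mice read 67950, 39048, 45190, 46122, 44847 and 52381, a mean of 49256 ± 10092 (n = 6), which is at least 2424-fold higher. By the fitted log2 difference, Cxcl10 ranked 1 from the top, Cxcl9 9 and Ccl5 30 among the 202 genes tested, in an order that depends on the pseudocount for genes at the floor.

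LPS changed much of the panel, so the direction of these genes is not particular to them. In limma with Benjamini-Hochberg adjustment, 49.5% of the genes tested were called higher in WT+LPS than in WT-LPS, and all 3 chemokines were among them. In 45.5% of the genes all WT+LPS mice lay above all WT-LPS mice, which also held for all 3. The median log2 difference over all 202 genes was 0.47. Genes at or under 20 in every WT-LPS mouse, Cxcl10 among them, passed the filter only through LPS-treated samples. Their calls as higher with LPS are therefore no support for a rise.

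**Figure D1:**
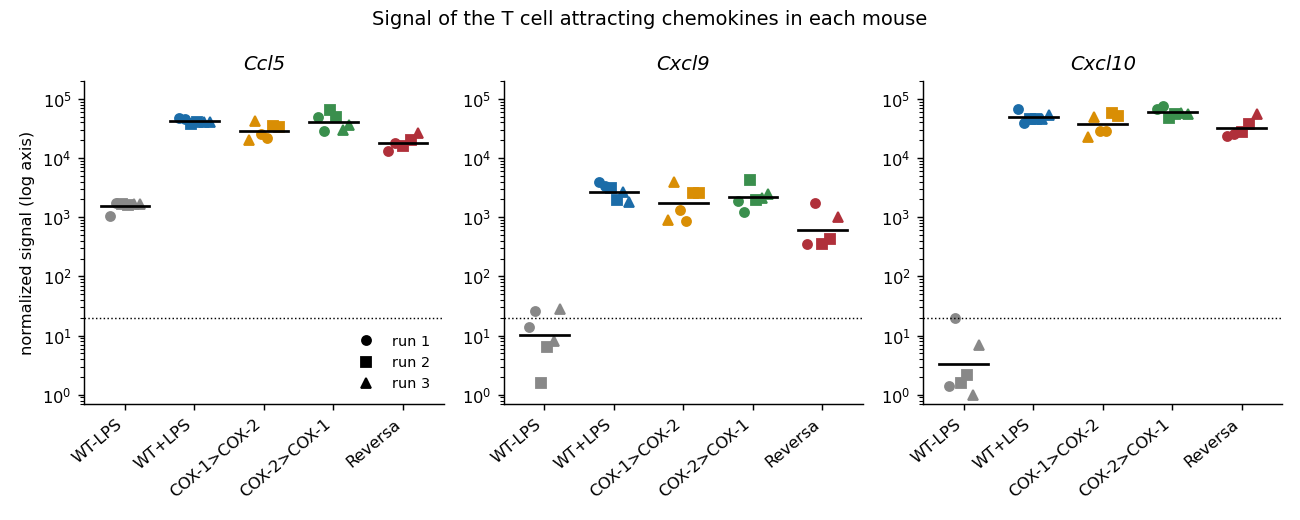
Normalized signal (log axis) of Ccl5, Cxcl9 and Cxcl10 in each mouse by group, with the marker shape giving the run, a black bar at the mean of log2(signal + 1) turned back to signal, and a dotted line at the floor of 20. Reversa mice 55 and 56 are 1 averaged point, and every LPS-treated point lies above every vehicle point in each panel.

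In the exchange lines Ccl5 was lowest in Reversa. The 5 Reversa samples read 13339, 18018, 15679, 20052 and 26076, a mean of 18633 ± 4862 (SD, n = 5), all below the lowest WT+LPS mouse at 37795. The difference from WT+LPS was -1.21 on the log2 scale (SE 0.21, 95% interval -1.65 to -0.77), or 2.31-fold lower. They also lay below all 6 COX-2>COX-1 mice. All Reversa samples still exceeded the vehicle mice, by 11.7-fold on average.

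COX-1>COX-2 macrophages held an intermediate Ccl5 level that overlapped wild type. The 6 mice read 25323, 22025, 34552, 32977, 42177 and 20150, a mean of 29534 ± 8474 (n = 6). Of these, 5 lay below every WT+LPS mouse and 1 was within the wild-type range. The log2 difference was -0.56 (SE 0.20, interval -0.97 to -0.14).

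COX-2>COX-1 macrophages read 49459, 28580, 65482, 49475, 29364 and 36815 for Ccl5, a mean of 43196 ± 14290 (n = 6). Of these, 3 lay below all wild-type mice and 3 above. The log2 difference of -0.02 (SE 0.20) had an interval from -0.44 to 0.39, so a change of that size in either direction was not resolved. The coefficient of variation was 33.1%, the widest of the groups for Ccl5.

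Cxcl9 had the lowest level of the 3 chemokines relative to wild type in Reversa. Its signal there was 355, 1724, 350, 425 and 997 in mice 51, 52, 53 and 54 and in the averaged pair, a mean of 770 ± 598 (n = 5). All 5 lay below the lowest WT+LPS mouse at 1816, mouse 52 only narrowly. The log2 difference was -2.12 (SE 0.52, 95% interval -3.19 to -1.06), or 4.36-fold lower, the second lowest of the 202 genes after Ptgs2, whose locus was altered. Ccl5 ranked 7 from the lowest and Cxcl10 32.

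In COX-1>COX-2 the Cxcl9 signal was 1344, 879, 2614, 2517, 3957 and 913, a mean of 2037 ± 1211 (n = 6). These mice split into 3 below the wild-type range and 3 within it. In COX-2>COX-1 it was 1910, 1249, 4300, 1966, 2133 and 2492, a mean of 2342 ± 1041 (n = 6), with 1 mouse below and 1 above the wild-type range. The log2 differences from WT+LPS were -0.63 (SE 0.50, interval -1.65 to 0.39) and -0.31 (SE 0.50, interval -1.33 to 0.71). Both intervals included 0.

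Cxcl10 was the member closest to wild type in Reversa. Its signal there was 23730, 25918, 27647 and 37683 in 4 mice and 55354 in the averaged pair, a mean of 34067 ± 13045 (n = 5). Only the averaged pair was above the lowest WT+LPS mouse, and it exceeded 5 of the 6 wild-type mice. The log2 difference was -0.58 (SE 0.41, interval -1.42 to 0.25).

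The Cxcl10 signal in COX-1>COX-2 was 28770, 28252, 57051, 50574, 49397 and 23053, a mean of 39516 ± 14428 (n = 6). The 3 mice below the wild-type range were those with low Cxcl9. In COX-2>COX-1 it was 67176, 74737, 46575, 55528, 58617 and 55241, a mean of 59646 ± 9927 (n = 6), and the range overlapped that of WT+LPS. The log2 differences were -0.38 (SE 0.39, interval -1.18 to 0.42) and 0.28 (SE 0.39, interval -0.51 to 1.08). The standard errors of Cxcl9 and Cxcl10 come from 1 spread shared by all groups, and the vehicle mice near the floor, with an SD of 1.31 on the log2 scale for each gene, widen it.

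**Figure D2:**
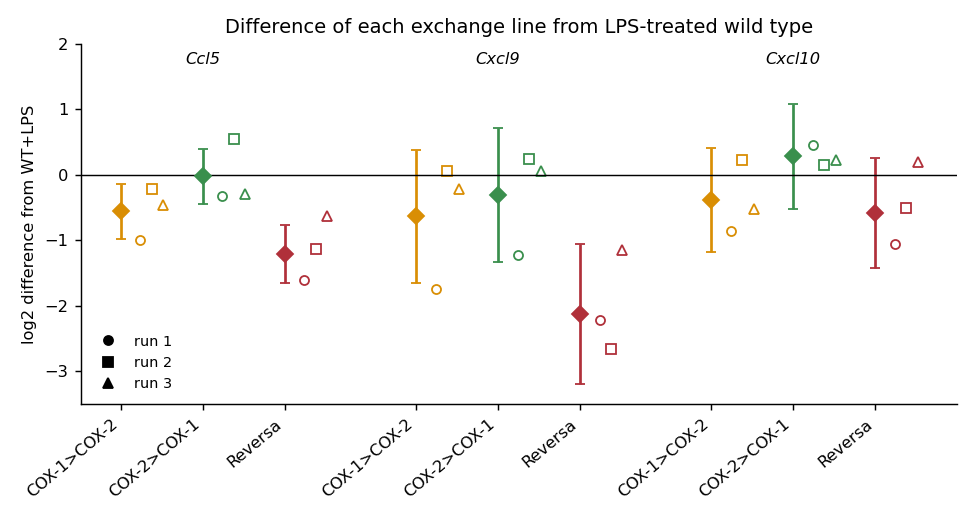
Log2 difference of each exchange line from WT+LPS for Ccl5, Cxcl9 and Cxcl10, with filled diamonds for all runs together, bars for the 95% interval of the limma fit and open symbols for each run alone. The Reversa intervals of Ccl5 (-1.65 to -0.77) and Cxcl9 (-3.19 to -1.06) lie below 0, and that of Cxcl10 (-1.42 to 0.25) includes 0.

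Few genes of the panel differed between an exchange line and WT+LPS in the same fit. In COX-1>COX-2, 0.495% of genes were called lower and 0.99% lay below all wild-type mice, and 0 of the 3 chemokines were among either. At an unadjusted p under 0.05 the limma fit held 18 genes in that comparison, 1 of them Ccl5. In COX-2>COX-1, 0.99% were called lower and 1.49% lay below the wild-type range, again with 0 of the 3, and 26 genes, none of these chemokines, had an unadjusted p under 0.05. In Reversa, 6.93% of genes were called lower and 3.96% lay below all wild-type mice, and Ccl5 and Cxcl9 were among both. Since the genes were chosen with these levels known, nothing is read from the counts. The exchange comparisons share the WT+LPS mice.

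Ordered by mean signal, Ccl5 ran from COX-2>COX-1 through WT+LPS and COX-1>COX-2 to Reversa and WT-LPS. The ranges overlapped between each neighbouring pair in that order except the last. For Cxcl9 WT+LPS came before COX-2>COX-1, then COX-1>COX-2 mice, then Reversa and WT-LPS, and for Cxcl10 it was that of Ccl5. In both, too, the only neighbours without overlap were Reversa and WT-LPS. Among the LPS-treated groups, Reversa did not overlap WT+LPS for Ccl5 and Cxcl9. For Cxcl9 that gap was narrow, with the highest Reversa sample at 1724 and the lowest WT+LPS mouse at 1816. Nor did Reversa overlap COX-2>COX-1 for Ccl5, where 30 of 30 mouse pairs ran one way. For Cxcl9 29 of 30 pairs, and for Cxcl10 28 of 30, were higher in COX-2>COX-1 than in Reversa.

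Within single runs the Reversa difference kept its sign for Ccl5 and Cxcl9 but not for Cxcl10. For Ccl5 it was -1.60, -1.14 and -0.63 on the log2 scale in runs 1, 2 and 3. For Cxcl9 it was -2.21, -2.67 and -1.15, and for Cxcl10 -1.06, -0.50 and 0.19. Run 3 held only the averaged pair for Reversa, the sample with the highest Ccl5 and Cxcl10 of its group. With mice 55 and 56 kept apart the 3 differences were -1.12, -2.01 and -0.45.

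The other exchange lines varied more between runs than they differed from wild type. In COX-1>COX-2 the run values were -0.99, -0.21 and -0.47 for Ccl5, -1.74, 0.06 and -0.22 for Cxcl9, and -0.85, 0.23 and -0.52 for Cxcl10. In COX-2>COX-1 they were -0.32, 0.54 and -0.29 for Ccl5, -1.23, 0.24 and 0.06 for Cxcl9, and 0.46, 0.16 and 0.23 for Cxcl10. Only Ccl5 in COX-1>COX-2 and Cxcl10 in COX-2>COX-1 had 1 sign in every run.

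Ratios within a lane do not depend on how lanes were scaled, and were added after the levels had been seen. On the log2 scale, Cxcl9 over Cxcl10 averaged -4.17 ± 0.47 (SD, n = 6) in WT+LPS, -4.42 ± 0.45 (n = 6) among COX-1>COX-2 mice, -4.76 ± 0.81 (n = 6) for COX-2>COX-1 and -5.71 ± 1.04 (n = 5) for Reversa. Relative to Cxcl10, Cxcl9 was thus 2.91-fold lower in Reversa than in wild type. In 4 Reversa samples the ratio lay between -6.47 and -5.80, below all wild-type mice, while mouse 52 at -3.91 lay inside the wild-type range. Ccl5 over Cxcl10 averaged -0.21 ± 0.25 in WT+LPS and -0.83 ± 0.20 in Reversa, 1.54-fold lower. Those ranges did not overlap, but the gap was small, with the highest Reversa sample at -0.52 and the lowest wild-type mouse at -0.51. Cxcl9 over Ccl5 was -3.96 ± 0.39 against -4.87 ± 0.90 and overlapped because of mouse 52. None of these ratios was tested.

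**Figure D3:**
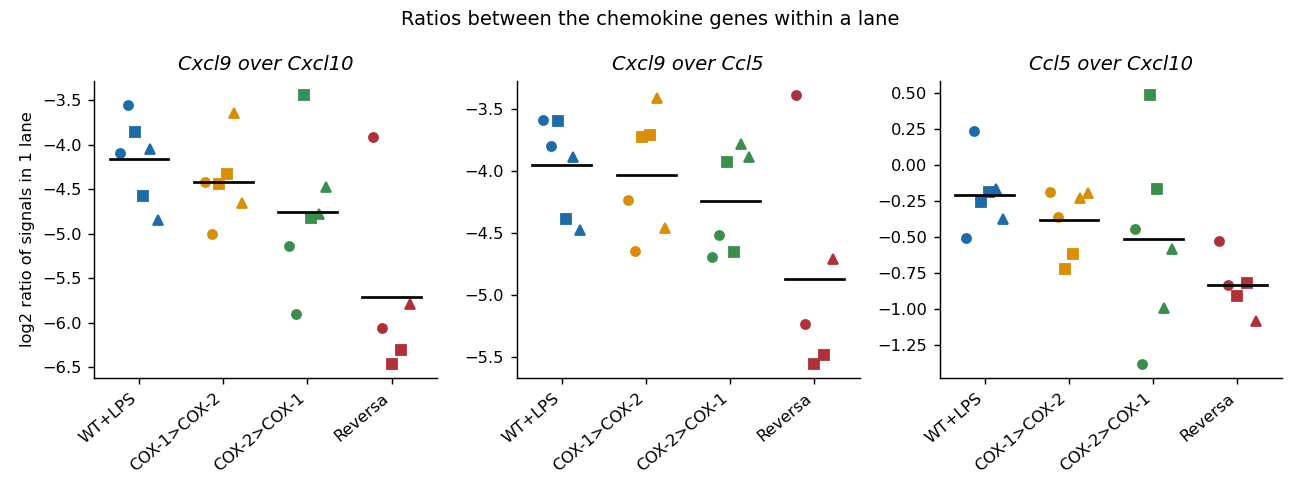
Log2 ratio between the signals of 2 chemokine genes in the same lane, by LPS-treated group, with the marker shape giving the run (circle 1, square 2, triangle 3) and a black bar at the group mean. For Cxcl9 over Cxcl10, 4 Reversa samples lie between -6.47 and -5.80 and mouse 52 lies at -3.91.

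Levels of the chemokines also varied among mice of 1 group, which the choice of the genes by group did not use. Deviations of log2(signal + 1) from the group mean were compared over the 23 LPS-treated samples, with 100000 permutations within groups, two-sided. Mice high in Ccl5 were high in Cxcl9, with Pearson r 0.71 and Spearman rho 0.73 (permutation p = 0.00097 for r, adjusted over 3 pairs 0.0029). Without the 2 samples farthest from the median r was 0.60, and within runs 1, 2 and 3 it was 0.71, 0.66 and 0.94 (8, 8 and 7 samples). A group had at most 2 samples in a run, and their deviations from the mean of the group in that run mirror each other. The values within runs therefore rest on fewer independent values than samples, and are a description. The deviations had the same sign in 17 of 23 samples.

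Ccl5 and Cxcl10 gave r 0.50 and rho 0.51 (permutation p = 0.029, adjusted 0.044). Without the 2 farthest samples r was 0.63. This relation had r -0.03, 0.24 and 0.91 within runs, under the same limit, and 0.078 over all runs when lanes were rescaled to equal totals. Its adjusted p passed the threshold no longer in 13 of 23 settings that left out 1 sample, all 6 COX-1>COX-2 mice among them. Cxcl9 and its neighbour Cxcl10 gave r 0.38 and rho 0.39 (permutation p = 0.16, adjusted 0.16), r 0.49 without the 2 farthest samples, and 0.21, -0.23 and 0.88 within runs. Leaving out Reversa mouse 52 gave r 0.56 (adjusted permutation p = 0.034). Genes of the panel share lanes and scaling, and the median r over all 20301 pairs of tested genes was 0.09. Of those pairs, 5.45% exceeded the r of Ccl5 with Cxcl9, 17.2% that of Ccl5 with Cxcl10 and 26.3% that of Cxcl9 with Cxcl10.

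The same pairs were taken within each group of 6 mice, in 9 exact permutation tests added after the pooled values had been seen. In COX-1>COX-2, mice high in Ccl5 were high in Cxcl9, with r 0.99 (exact permutation p = 0.0042, adjusted 0.0375), and rho 0.94 (exact p = 0.0167, adjusted 0.075). The other pairs there had r 0.92 and 0.91, with adjusted exact p = 0.0917 and 0.0969. In COX-2>COX-1 r was -0.93 for Cxcl9 and Cxcl10 (exact permutation p = 0.0139, adjusted 0.0625), -0.64 for Ccl5 and Cxcl10 (exact p = 0.185, adjusted 0.263) and 0.70 for Ccl5 and Cxcl9 (exact p = 0.0986, adjusted 0.178). In WT+LPS r was 0.57 for Ccl5 and Cxcl9, 0.38 for Ccl5 and Cxcl10 and 0.21 for Cxcl9 and Cxcl10, with adjusted exact p = 0.263, 0.567 and 0.742. With the 2 farthest mice removed, r of Ccl5 and Cxcl9 was 0.996 in COX-1>COX-2, -0.84 in WT+LPS and -0.59 in COX-2>COX-1 (n = 4 each), so outside COX-1>COX-2 it rested on those mice. Whether the groups differ in this was not tested.

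**Figure D4:**
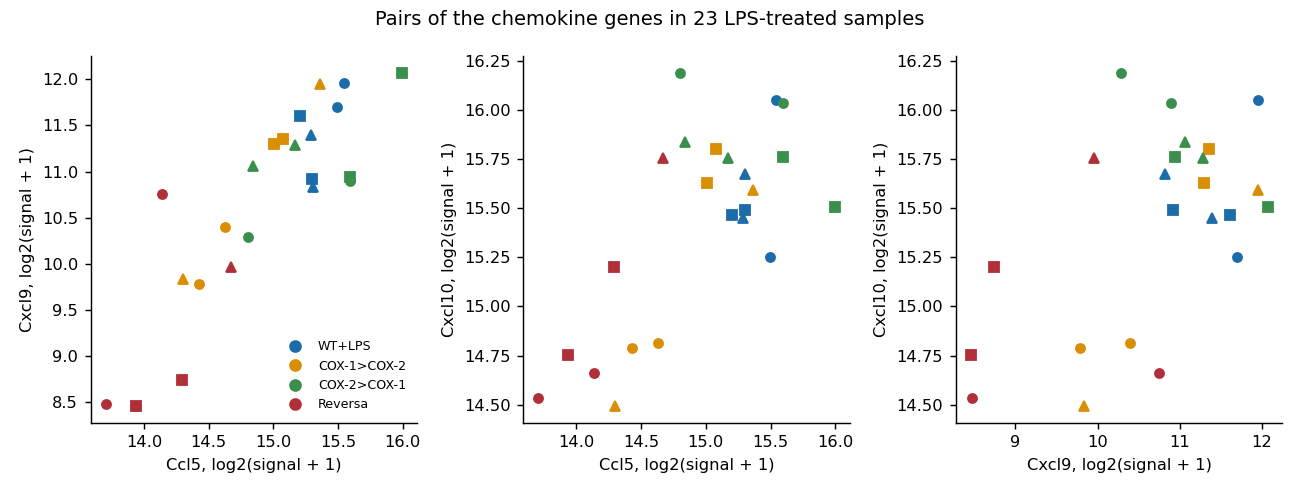
Log2(signal + 1) of each pair of the chemokine genes in the 23 LPS-treated samples, coloured by group, with the marker shape giving the run (circle 1, square 2, triangle 3). Cxcl9 is higher where Ccl5 is higher (r 0.71 of deviations from group means), and the Reversa samples lie at the low end of both.

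By the same deviations, the 4 genes of the panel most like each chemokine were named over the 23 samples. Only Oas1a was among the 4 of more than 1 chemokine. For Ccl5 they were Oas1a, an interferon-induced antiviral synthetase (r 0.85), the cytokine Il18 (0.82), complement factor B, Cfb (0.80), and the phospholipase Pla2g4a (0.80), which frees arachidonic acid. For Cxcl9 they were Iigp1, an interferon-inducible GTPase (r 0.91), Nos2, the inducible nitric oxide synthase (0.83), Oas1a (0.81) and C1qb (0.79). For Cxcl10 they were Mapkapk2, a kinase downstream of p38 (r 0.93), the lipoxygenase Alox15 (0.87), the glucocorticoid receptor Nr3c1 (0.84) and Il1rap (0.84). These likenesses are descriptions. Across the alternative scalings, r with Iigp1 stayed between 0.88 and 0.93, while r of Cxcl10 with Il1rap fell as low as 0.58.

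Receptors of these chemokines were scarcely covered. Ccr1 and Ccr3 were the listed receptors on the panel, and Ccr3 did not pass the filter on low values. Ccr1, a receptor of Ccl5, fell by 1.13 on the log2 scale with LPS (limma adjusted p = 1.05e-05) and gave -0.27 in Reversa (adjusted p = 0.492). It passed the test in 0 of the 3 exchange comparisons, also at an unadjusted p under 0.05.

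Of the cytokines that induce these chemokines, 6 of 8 were tested and all 6 were called higher with LPS, with a median of 1.80. One of them, Il12b, lay at or under 20 in 5 of 6 WT-LPS and 4 of 6 WT+LPS mice. Ifng, encoding interferon gamma, went from at most 13.7 in WT-LPS to 704 ± 293 (SD, n = 6), and the mean of Tnf from 58.5 to 616. Ifng passed the filter only through LPS-treated samples, so its call adds no support to these levels. The interferon genes Ifnb1 and Ifna1 were not tested. Neither was above 20 in a wild-type, COX-1>COX-2 or Reversa sample, while in COX-2>COX-1 Ifna1 was above 20 in 5 of 6 mice (26.2 on average) and Ifnb1 in 1. In the exchange comparisons none of the 6 passed the limma test (at an unadjusted p under 0.05, 0 in COX-1>COX-2, 0 for COX-2>COX-1 and 1 for Reversa). In Reversa Ifng averaged 399 ± 237 (n = 5), a log2 difference of -0.94 (SE 0.47, interval -1.91 to 0.04, adjusted p = 0.252). Il18 gave -0.44 (adjusted p = 0.186) and Tnf 0.59 (adjusted p = 0.273).

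Sensors and adaptors of the LPS response gave 2 higher, 1 lower and 1 that did not pass among 4 tested genes with LPS. Tlr3 rose by 5.38 on the log2 scale and the adaptor Myd88 by 1.87. Tlr3 lay at or under 20 in all 6 WT-LPS mice, so it passed the filter only through LPS-treated samples. With values set to at least 20 its fold was 7.93. Tlr4, the LPS receptor, fell by 0.52 (adjusted p = 0.0339), a call that was lost in each run alone, with 4 reference genes, and without WT+LPS mouse 53 or 54 or WT-LPS mouse 38 or 39, and its partner Ly96 gave -0.00 (adjusted p = 0.998). In Reversa the median of these 4 genes was -0.47, beside -0.07 over all genes tested. None passed (limma, lowest adjusted p = 0.169, for Ly96 at -0.40), although 3 had an unadjusted p under 0.05. None passed in COX-1>COX-2 or COX-2>COX-1 either, with 0 and 2 at an unadjusted p under 0.05.

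The transcription factors listed are interferon regulatory factors, Stat and NF-kappaB proteins. Of 9 tested, 7 rose and 2 fell with LPS: Irf7 rose by 4.23, Irf1 by 2.63 and Stat2 by 1.57 on the log2 scale. In Reversa the median was -0.10 and none passed the limma test, with 0 at an unadjusted p under 0.05. Irf1, an interferon regulatory factor, averaged 14332 ± 902 (n = 5) there and 16192 ± 1531 (n = 6) in WT+LPS, a difference of -0.17 (SE 0.19, adjusted p = 0.633). None passed in the other lines, with 0 and 1 at an unadjusted p under 0.05.

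Other interferon-stimulated genes, encode antiviral effectors. Of 10 tested, 9 rose with LPS, with a median of 4.34, and Ifi27l2a gave -0.37 (adjusted p = 0.21). Oasl1 rose by 6.77, Ifit1 by 6.31, Ifit2 by 5.05 and Ifit3 by 4.79. In Reversa their median was -0.13, the lowest adjusted p was 0.273 (Oas1a at -0.34), and 0 of 10 had even an unadjusted p under 0.05. COX-2>COX-1 had 3 at that unadjusted level and none after adjustment (limma, lowest adjusted p = 0.163), and COX-1>COX-2 had 0.

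Of the 16 other chemokines listed on the panel, which mostly attract monocytes and neutrophils, 12 were tested. All 12 rose with LPS, with a median of 6.28. In WT-LPS 9 of the 16 were never above 20, and 4 of these, never above 20 in WT+LPS either, were not tested. The rest of the 9, Ccl4 among them, passed the filter only through LPS-treated samples, so their calls are no support for a rise. Ccl7 rose by 9.26, Ccl2 by 6.46, Ccl3 by 8.69 and Ccl4 by 10.05 on the fitted scale. With values set to at least 20 the folds of Ccl7 and Ccl4 were 355 and 262. In Reversa the 12 lay on both sides of 0, 6 above and 6 below, between -0.92 and 0.95 with a median of 0.12. None of the 12 passed the limma test and 5 had an unadjusted p under 0.05. Ccl22 gave 0.95 (adjusted p = 0.114), Ccl2 0.47 (adjusted p = 0.172) and Ccl7 0.50 (adjusted p = 0.173), and the neutrophil attractant Cxcl1 gave -0.81 (adjusted p = 0.169). Ccl2 and Ccl7 passed when lanes were scaled to equal totals, at 0.66 and 0.69. None of the 12 passed in COX-1>COX-2 or COX-2>COX-1, with 2 each at an unadjusted p under 0.05.

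**Figure D5:**
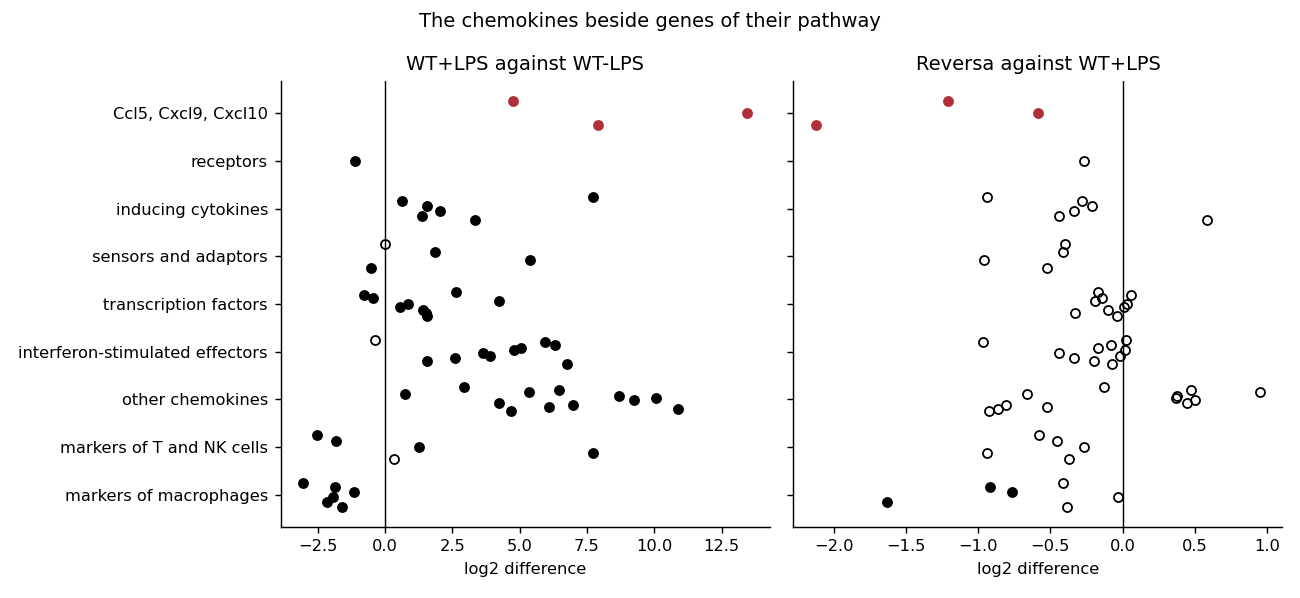
Log2 difference of Ccl5, Cxcl9 and Cxcl10 (red) and of the tested genes of each list (black, 1 point a gene), for LPS in wild type on the left and for Reversa against WT+LPS on the right. Filled black points passed an adjusted p of 0.05 in limma, and the red points carry no test; of the lists plotted, only the macrophage markers hold filled points on the right, 3 of 6.

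Markers of cell types were read beside these levels. Of the 10 macrophage markers listed 6 were on the panel, and none of Csf1r, Adgre1, Cd68 and Itgam was. Each of the 6 was above 20 in at least 1 sample of every group. One of them, Trem2, lay at or under 20 in 3 of 5 Reversa samples. With values set to at least 20, Trem2 was 2.17-fold lower in Reversa than in WT+LPS. All 6 fell with LPS, and 3 of 6 fell again in Reversa: Trem2 by 1.63 (limma adjusted p = 0.00652), and the complement genes C1qa by 0.92 (adjusted p = 0.0155) and C1qb by 0.77 (adjusted p = 0.0303). Their summed signal ran from 102538 to 143178 in WT-LPS, 30634 to 56668 in WT+LPS, 20773 to 50651 among COX-1>COX-2 mice, 28902 to 42462 for COX-2>COX-1 and 15453 to 38492 for Reversa. In the single exchange lines 0 of 6 passed, also at an unadjusted p under 0.05. Their part in the lower Ccl5 and Cxcl9 of Reversa was not tested.

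Of the 6 T and NK cell markers on the panel, 5 were tested, Il2 was never above 20 in any group, Ifng had the levels given above, and the summed signal ran from 281 to 525 in WT-LPS, 537 to 1326 in WT+LPS, 343 to 1529 among COX-1>COX-2 mice, 562 to 1204 for COX-2>COX-1 and 311 to 839 for Reversa. With LPS 2 rose and 2 fell: Cd4 fell by 2.52 and Cd40lg fell by 1.83 on the log2 scale, while Ifng and Fasl rose. The mean of Ifng, also listed as an inducing cytokine, went from 3.39 to 704, and that of Cd4 from 263 to 47.2. Most of the summed signal in WT+LPS was thus Ifng. Fasl lay at or under 20 in 5 of 6 WT-LPS mice, and Cd40lg in 4 of 6 WT+LPS mice. None of the 5 passed in limma in an exchange line, with 0 (COX-1>COX-2), 1 (COX-2>COX-1) and 1 (Reversa) at an unadjusted p under 0.05. Their part in the chemokine levels was not tested.

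Markers of other cells were few. The 2 genes tested as mast cell and eosinophil markers, Il13 and Il5, were called higher in Reversa than in WT+LPS. Il13 went from 8.36 ± 6.18 to 41.7 ± 21.2 (limma adjusted p = 0.000509) and Il5 from 15.6 ± 13.8 to 72.0 ± 47.5 (adjusted p = 0.0164). In WT+LPS Il13 was at or under 20 in all 6 mice and Il5 in 4 of 6. With values set to at least 20 the folds were 1.90 and 2.69. Il13 passed the filter only through its Reversa samples, so its call is no support for a rise there. B cell markers gave 1 higher (Cd40) and 1 lower (Ltb) of 2 with LPS, neutrophil markers 1 higher (Cxcr2) and 1 lower (Mmp9) of 2, and mesothelial and stromal markers 2 higher (Flt1 and Areg) of 2. None of these 6 genes passed in Reversa, with only Areg at an unadjusted p under 0.05. Cxcr2, Flt1 and Areg lay at or under 20 in all 6 WT-LPS mice, and Areg also in 4 of 6 WT+LPS mice. They passed the filter only through LPS-treated samples. With values set to at least 20 their folds with LPS were 2.23, 2.38 and 1.09. The part of all these markers in the chemokine levels was not tested either.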

How the data were processed

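The values deposited by the authors are an nCounter signal per gene and sample. No label states the software. The values themselves show the steps: background removed per lane with a minimum of 1, then gene rows scaled until Cltc and Gapdh had a joint geometric mean of 8147.9 in every lane. The 2 deposited tables agree in all 266 shared rows. Where probes bind is not given. Depth was estimated from the steps between low values (tolerance 0.1 of a step), 1 count being worth 0.646 to 1.94 signal units.

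limma 3.58.1 in R 4.3.3 was run on log2(signal + 1), in 1 fit of 29 samples and 5 groups. Values under the floor enter this fit as they are, so its folds of low genes can exceed those with values set to at least 20. For Cxcl10 under LPS these were 11263 and 2424. A gene entered the tests if its signal exceeded 20 in 6 samples or more. Adjustment was by Benjamini-Hochberg over 202 genes with a threshold of 0.05, two-sided, and the fit was checked on simulated data. Permutation tests used scipy 1.17.1 in Python 3.11.15. Groups come from the labels, and run and lane from the column names. A fold against the floor is a lower bound, with each value set to at least 20.

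The 3 chemokines, the gene lists and the tests were chosen with earlier results of these data known. Besides the 3 and Ptgs1 and Ptgs2, the text names in each list at most 4 genes with the smallest p in a comparison and the 4 genes most like each chemokine; Ccr3, Ifnb1, Ifna1, Il2, Ifi27l2a and Art3 were named after their values were seen. Positions and promoter letters are from RefSeq, in which 2 of the 3 genes had a promoter entry. Alternatives covered scaling, pseudocount, filter, samples in the fit, replicate number and run as blocks, single runs and leaving out each sample.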

Additional observations from a re-analysis of the deposited data

Results flagged for a closer look

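Values were searched for single samples far from the rest of their group, by the gap to the nearest sample over the range of the group. In 27 groups of values 3 stood out, where chance alone gives about 1 in 20. For Ccl5, vehicle-treated mouse 37 at 1046.5 lay below the next mouse at 1635.1, with a gap of 0.864 of the range. For Cxcl10, vehicle-treated mouse 38 at 19.78 lay above the next at 6.91 (gap 0.685 of the range), with all 6 values under the floor of 20. For the log2 ratio of Cxcl9 over Cxcl10, Reversa mouse 52 at -3.9101 lay above the next at -5.7956 (gap 0.737 of the range).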

How the results depend on the processing

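The lower Ccl5 and Cxcl9 of Reversa had the same sign in every alternative run, which describes levels that chose the genes and is no support for them. Leaving out 1 sample at a time moved Ccl5 between -1.34 and -1.10, Cxcl9 between -2.49 and -1.92 and Cxcl10 between -0.78 and -0.47. The number of genes called in Reversa was 17. It was 9 with only the groups compared, 9, 5 and 9 in runs 1, 2 and 3 alone, and 9 to 23 with 1 sample left out, 9 of them without mouse 51. With equal totals it split into 10 higher and 13 lower, beside 3 and 14. In COX-1>COX-2, 2 genes were called, 1 in each run alone and 1 to 5 with 1 sample left out (1 without mouse 58, 4 without 59 and 5 without 60). In COX-2>COX-1, 2 were called, 4 without a filter and 1 in runs 1 and 3 alone. For LPS, 169 were called and 111 in run 1 alone. Equal totals, 4 reference genes and equal medians moved the median of all genes under LPS by -0.38, 0.51 and -0.91, split the calls into 83 and 83, 120 and 43, and 74 and 105 higher and lower, and gave Ccl5 4.38, 5.27 and 3.84. Run 1 alone gave Ccl5 5.12. Equal medians gave Cxcl10 12.73 under LPS. A pseudocount of 10 gave Cxcl9 6.95 and Cxcl10 11.72 under LPS, as it lowers the folds of genes near the floor, and run 2 alone gave Cxcl9 9.13. In the exchange lines the run values that moved most were, for COX-1>COX-2 in run 1, -0.99 (Ccl5) and -1.74 (Cxcl9); for COX-2>COX-1, 0.54 (Ccl5, run 2) and -1.23 (Cxcl9, run 1); and for Reversa, -1.60 (Ccl5, run 1) and, in run 3, -0.63 (Ccl5), -1.15 (Cxcl9) and 0.19 (Cxcl10). Ly96 under LPS turned to 0.51 with 4 reference genes. The correlation of Ccl5 with Cxcl10 was 0.078 with equal totals (adjusted permutation p = 0.74) and 0.40 to 0.68 with 1 sample left out, and no longer passed in 13 of 23 (without any of the COX-1>COX-2 mice, COX-2>COX-1 mice 51 and 56, Reversa mice 51, 53 and 54 and the averaged pair, and WT+LPS mouse 51). That of Cxcl9 with Cxcl10 ran from 0.28 to 0.56, and among these alternatives passed only without Reversa mouse 52 (r 0.56, adjusted permutation p = 0.034). Equal totals also moved the median of all genes by 0.16 for COX-1>COX-2 mice and 0.19 for Reversa, and equal medians by 0.11 for COX-1>COX-2. The cause of these changes was not tested.

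WT+LPS shares 2 or more replicate numbers only with COX-2>COX-1 and Reversa, with COX-1>COX-2 mice it shares 1 and with WT-LPS none, so no paired fit was made there. Same-numbered samples of WT+LPS and of these 2 lines were in the same run. Their deviations from the group means correlated between -0.35 and 0.21, which gives no sign of pairing but cannot exclude it. With the replicate number as a block, Reversa had 12 calls, Ccl5 at -1.23, Cxcl9 at -2.16 and Cxcl10 at -0.58, and COX-2>COX-1 had 2 calls. Signals at or under 20 carry no order, which limits the vehicle values of Cxcl9 and Cxcl10.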
